A study of Mus musculus with 8 samples.

Results

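Cells that carry RNA of Ccr2, Hpgd or Ms4a6c with RNA of more mature monocytes and of granule-forming neutrophils below set limits numbered 371 of 17384 kept cells in this mouse bone marrow culture. They were chosen by their own counts. A member had at least 3 unique molecular identifiers (UMIs, each marking 1 captured RNA molecule) of Ccr2, Hpgd and Ms4a6c together, and at least 1.5 of these per 10000 UMIs. It also had fewer than 3 UMIs of Vcan and Mpeg1 and under 150 UMIs of Ngp and Camp per 10000. A kept cell had at least 300 genes detected and at most 10% of its UMIs from mitochondrial genes.

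Whole mouse bone marrow cells were grown for 1 week on irradiated AFT024 cells, a line of stromal cells of the fetal liver used here as feeders. Medium for long-term culture held deoxycholic acid at 35 µM (DCA) or no addition (Control). Deoxycholic acid is a secondary bile acid that gut bacteria make from a primary one. Lineage-negative cells were then sorted, so the shares below are shares of sorted cells, and captured in droplets for 3′ RNA sequencing. The labels list 4 samples in each group, but the cell names carry the group alone, so each group was 1 library and no difference below has a replicate check. Intervals are exact 95% intervals that cover counting error only, and UMIs of 1 cell are not independent of each other. The age and strain of the animals are not used here. The libraries shared 25 cell barcodes, and 2 members had a barcode that also occurred in the other library.

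Ccr2 encodes the receptor through which monocytes and their precursors follow CCL2 out of the marrow. Hpgd encodes 15-hydroxyprostaglandin dehydrogenase, which inactivates prostaglandins such as PGE2. Ms4a6c encodes a membrane protein found in cells of the monocyte lineage. In marrow, Ccr2 RNA is also found in progenitors that can still give rise to several myeloid cell types.

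The promoters of the 3 genes that chose the members are shown because these genes define the cells, together with that of Cebpb, a myeloid transcription factor gene whose level differed between the libraries. Each window runs from 250 bases before the RefSeq start site to 50 bases from it, on the plus strand of GRCm38.p6; the sources used here do not give the build behind the counts. Capitals mark matches, on either strand, to 5 motifs. The PU.1-type motif was searched as GAGGAA. The C/EBP-type motif was searched as TTGCNNAA. The half-site of nuclear receptors was searched as AGGTCA. The GC box was searched as GGGCGG. The box at which many start sites are set, the TATA box, was searched as TATAAA.
Hpgd: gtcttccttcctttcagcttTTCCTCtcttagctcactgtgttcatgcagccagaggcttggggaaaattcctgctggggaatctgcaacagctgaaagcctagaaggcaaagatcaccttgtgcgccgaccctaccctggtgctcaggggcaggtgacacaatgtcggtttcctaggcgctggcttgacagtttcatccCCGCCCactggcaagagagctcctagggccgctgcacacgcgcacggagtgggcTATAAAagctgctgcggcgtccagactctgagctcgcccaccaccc
Ccr2: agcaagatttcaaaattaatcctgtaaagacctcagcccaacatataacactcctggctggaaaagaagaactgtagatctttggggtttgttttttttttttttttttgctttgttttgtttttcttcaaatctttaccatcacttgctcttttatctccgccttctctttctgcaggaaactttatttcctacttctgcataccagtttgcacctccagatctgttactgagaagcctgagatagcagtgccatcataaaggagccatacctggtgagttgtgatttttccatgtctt
Ms4a6c: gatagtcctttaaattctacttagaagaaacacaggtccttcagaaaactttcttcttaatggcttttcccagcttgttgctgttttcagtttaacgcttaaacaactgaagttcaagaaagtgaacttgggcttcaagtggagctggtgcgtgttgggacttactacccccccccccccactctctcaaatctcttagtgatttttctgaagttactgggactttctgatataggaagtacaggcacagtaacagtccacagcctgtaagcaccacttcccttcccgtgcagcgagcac
Cebpb: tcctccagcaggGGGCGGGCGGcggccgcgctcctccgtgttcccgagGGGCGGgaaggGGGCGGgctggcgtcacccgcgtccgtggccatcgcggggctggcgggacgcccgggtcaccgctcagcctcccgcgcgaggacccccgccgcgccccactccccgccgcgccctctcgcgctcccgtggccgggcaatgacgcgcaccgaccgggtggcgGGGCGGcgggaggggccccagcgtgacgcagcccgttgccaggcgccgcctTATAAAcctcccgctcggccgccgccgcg

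The Hpgd window, at chr8:56294302-56294601, held a PU.1-type motif and a GC box on the minus strand and a TATA box on the plus strand. The Ccr2 window, at chr9:124101933-124102232, and the Ms4a6c window, at chr19:11469118-11469417, held none of the 5. The Cebpb window, at chr2:167688665-167688964, held the GC box at 5 places, of which the first 2 overlap, and the TATA box once. Both TATA box matches lay after the RefSeq start site and not before it. They began at base 5 from that site in Hpgd and at base 22 in Cebpb. Over 32851 windows of this length, 28.28% held the PU.1-type motif, 10.8% the C/EBP-type motif, 16.26% the half-site, 35.66% the GC box and 13.62% the TATA box. A match is a description of the letters and not evidence of a bound factor.

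The label of early progenitors fitted the members in part, and Ccr2 and Hpgd were carried in part by the same cells. Hpgd UMIs were found in 58 of 124 DCA members and in 101 of 247 Control members, Ccr2 in 85 and 194, and Ms4a6c in 72 and 178. Both Ccr2 and Hpgd were found in 27 DCA members and 59 Control members, with or without Ms4a6c, so that Ccr2 was found in 27 of the 58 DCA and 59 of the 101 Control members with Hpgd. Ccr2 together with Ms4a6c and without Hpgd was the commonest pattern, in 35 DCA and 102 Control members. Hpgd alone was found in 19 DCA and 27 Control members. A gene with no UMI in a cell may still be expressed there, and members differed in depth, with a median of 18647 UMIs in DCA and 26384 in Control.

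Sorted by which of the 3 genes had most UMIs, 48 DCA and 105 Control members were led by Ccr2, 42 and 75 by Hpgd, 26 and 51 by Ms4a6c, and 8 and 16 had a tie. Some genes of progenitor cells were low in the Hpgd-led cells. Cd34, a surface sialomucin of early progenitors, stood at 1.89 CPM (the UMIs of a gene in a set of cells, scaled to a common total of UMIs) in Hpgd-led DCA members and 7.80 CPM in Hpgd-led Control members. In Ccr2-led members Cd34 stood at 58.2 CPM in DCA and 60.5 CPM in Control. Flt3, a cytokine receptor of lymphoid and dendritic precursors, followed the same pattern, at 1.89 and 6.93 CPM in Hpgd-led members of DCA and Control and at 23.8 and 26.6 CPM in Ccr2-led ones. Ctla2a, an inhibitor of cathepsin-like proteases, was at 15.1 and 31.2 CPM in Hpgd-led members of DCA and Control, and at 309 and 293 CPM in Ccr2-led ones. In both libraries Cd34, Flt3 and Ctla2a were thus lower in Hpgd-led than in Ccr2-led cells. Of the Ccr2-led cells, 58 lay in the basophil-like cluster 4 described below, and of the Hpgd-led cells 0. That cluster held Ctla2a at 884 CPM against 59.7 in the other members, and Cd34 at 102.5 against 23.5 CPM. Hoxa9, another stem and progenitor marker, stood at 80.0 CPM in cluster 2, where 59 of 81 cells were led by Hpgd. It stood at 49.4 CPM in the members outside cluster 2. Of the 22 stem and early progenitor markers, 1 was raised in cluster 2. The list summed to 252 CPM there and to 556 CPM in the other members.

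F7, which encodes coagulation factor VII, and Fabp5, a fatty acid carrier, ran the other way. F7 stood at 54.7 CPM in DCA and 55.9 CPM in Control among Hpgd-led members, and at 14.3 and 9.24 CPM among Ccr2-led members. Fabp5 stood at 772 CPM in DCA and 821 CPM in Control among Hpgd-led members, and at 387 and 471 CPM among Ccr2-led members. Elane, the neutrophil elastase of primary granules, was abundant in both groups, with 2221 and 2147 CPM in Hpgd-led members of DCA and Control and 1951 and 1137 CPM in Ccr2-led ones. Ms4a6c-led members held most Ly6a (Sca-1, a stem cell antigen that interferon also induces), with 108 CPM in DCA and 127 CPM in Control. They also held most Spp1 (osteopontin, a secreted phosphoprotein), with 233 CPM in DCA and 264 CPM in Control. Prss34 and Cpa3, proteases of basophil and mast cell granules, had 0 UMIs in Hpgd-led members, which allows up to 2.83 CPM in DCA and 1.30 CPM in Control. Since the groups were cut from the counts of 3 genes, these levels are a description and were not tested.

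**Figure D1:**
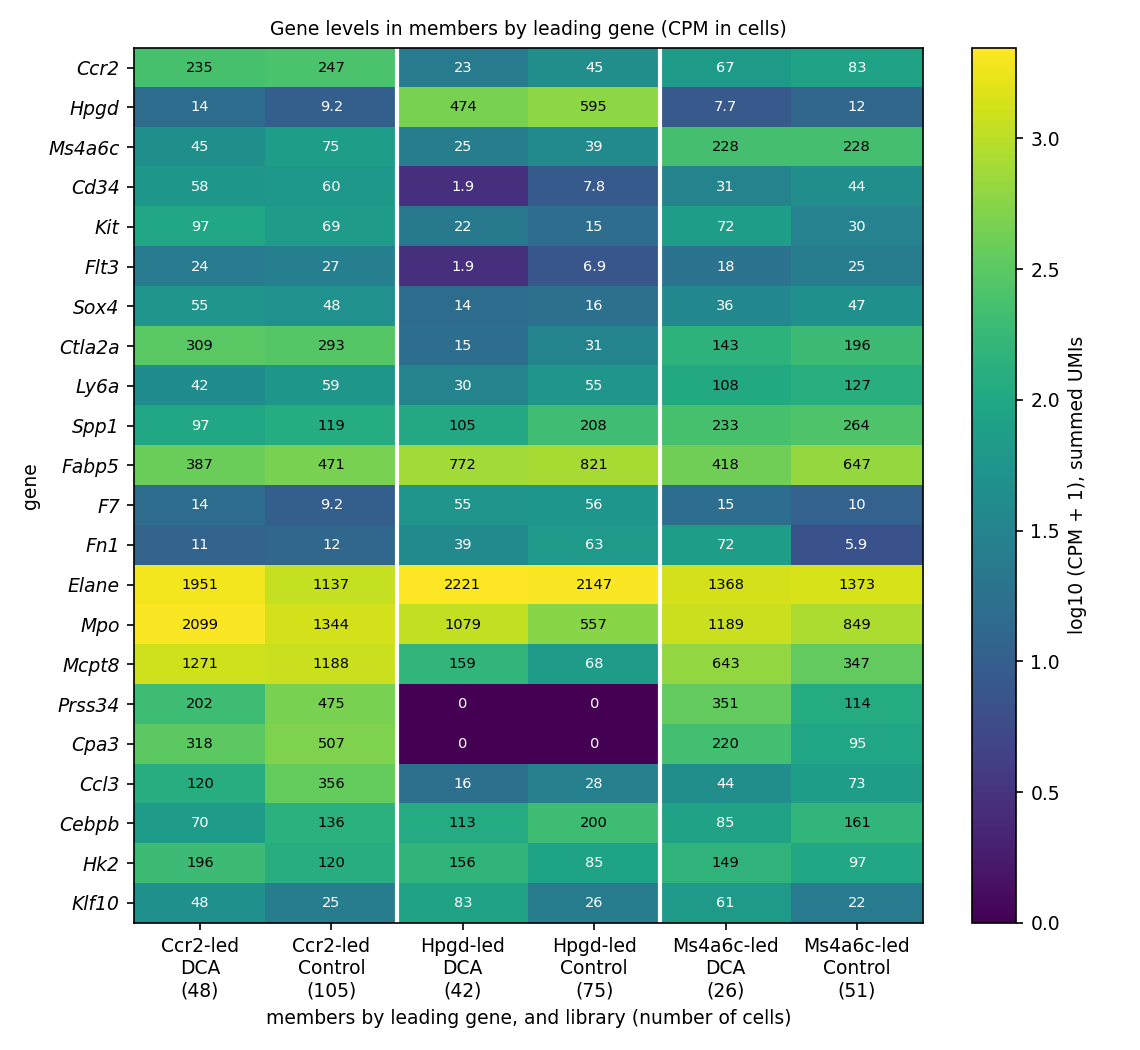
Level of 22 genes (rows; CPM printed in each cell, colour on a log10 (CPM + 1) scale) in members led by Ccr2, Hpgd or Ms4a6c, each split into DCA (left column) and Control (right column), with the number of cells in brackets. Prss34 and Cpa3 were at 0 in Hpgd-led members of both libraries, and Cd34 and Flt3 were lower there than in the Ccr2-led members of the same library.

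Clustering the members alone gave 5 clusters. Cluster 1 (98 cells) was led by Spp1, Ly6a and Fabp4, with Spp1 at 351 CPM against 82.6 in the other members. Fabp4 stood at 15.3 CPM and was found in only 8.16% of its cells. Of its 10 leading genes 2 were monocyte markers and 1 a stem and early progenitor marker. Cluster 2 (81 cells) was led by G0s2, an inhibitor of fat breakdown, and Hpgd, with Hpgd at 426 CPM against 146. Cluster 3 (80 cells) had Mpo, the myeloperoxidase of primary granules, at 1916 CPM against 886, and 3 of its 10 leading genes were markers of granulocyte-monocyte progenitors, so it was granulocyte-monocyte progenitor-like. The trait was not particular to cluster 3: the 12 markers of that list summed to 17058 CPM in cluster 2 and 17033 CPM in cluster 3. Elane stood at 3083 CPM in cluster 2 and 2551 CPM in cluster 3. Clusters 1 and 2 were left without a name.

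Clusters 4 and 5 carried genes of basophils and of neutrophils, against the label. The 22 stem and early progenitor markers gave another order. They summed to 1139 CPM in cluster 4, 499 in cluster 1, 458 in cluster 3, 253 in cluster 5 and 252 in cluster 2. Cluster 2, where Hpgd was highest, thus fitted the label poorly by this list. It also held mature neutrophil markers at 14994 CPM, against 11786 in the other members. Cluster 4 (70 cells) was basophil-like, with 8 of 9 basophil and mast cell markers raised. It held Prss34, a basophil protease, at 1374 CPM against 17.6 in the other members, and Cpa3, the carboxypeptidase of mast cell and basophil granules, at 1513 CPM against 10.7. Of its cells 58 were led by Ccr2 and 0 by Hpgd, and it had 0 Hpgd UMIs, which allows up to 13.7 CPM in its DCA and 3.29 CPM in its Control cells. It also held progenitor RNA, with 12 of 22 stem and early progenitor markers raised, Cd34 at 102 CPM and Kit, the stem cell factor receptor, at 122 CPM. Cluster 5 (42 cells) held S100a9 at 26768 CPM against 2453 and Stfa1 at 2273 CPM against 86.0, both genes of neutrophils, and was left without a name because it mixed immature and mature neutrophil markers. Ngp, a secondary granule gene limited by the rule, was not absent from the members: it stood at 3549 CPM in cluster 5, and its UMIs were found in at least 88.6% of the cells of each cluster. Doublets were not removed: 2 DCA and 7 Control members were among the 6% of cells with the highest Scrublet scores of their library.

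Beyond the 3 genes of the rule, the members stood out from the other 17013 kept cells in progenitor and basophil genes. Of those other cells 10002 were high in Ngp and Camp. This is a description, since the rule was applied to the same counts. Cd34 averaged 33.4 CPM over all members and 1.28 CPM in the other kept cells. Ly6a averaged 65.0 against 5.40 CPM, Tmem176b, a membrane protein of myeloid cells, 51.4 against 4.68 CPM, Ctla2a 162 against 20.2 CPM and Crip1, a LIM-domain protein, 245 against 52.6 CPM. Fabp5 averaged 622 against 158 CPM and Hspe1, the mitochondrial co-chaperonin, 787 against 207 CPM. Mcpt8, a basophil protease, averaged 578 against 84.1 CPM, and Rgs1, a regulator of G-protein signalling, 98.4 against 15.6 CPM. Much of both lay in cluster 4: Mcpt8 stood at 3391 CPM there and at 177 CPM in the members outside it, and Rgs1 at 685 and 14.9 CPM. Cd34, Tmem176b, Ctla2a and Crip1 were also higher in cluster 4, with Ctla2a at 884 against 59.7 CPM and Crip1 at 764 against 171 CPM. Ly6a, Fabp5 and Hspe1 were lower in cluster 4 than in the other members. The log2 ratio of members over the other cells, taken after adding 10 CPM to both, was 1.68 for Cd34 in DCA and 2.02 in Control, and 1.92 and 1.87 for Fabp5.

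Free RNA in droplets gives UMIs in cells that do not express a gene, so shares of cells with a UMI were set beside those in cells high in Ngp and Camp, with every cell thinned to 10000 UMIs. Before thinning, the cells high in Ngp and Camp had a median of 13235 UMIs in DCA and 16988 in Control. At the thinned depth Cd34 was detected in 20.2% of DCA and 24.7% of Control members, and in 0.154% and 0.250% of the cells high in Ngp and Camp. Without thinning it was detected in 22.6% of DCA and 37.7% of Control members. Flt3 was detected in 18.3% of DCA and 11.5% of Control members after thinning, and in 0.0615% and 0.225% of the cells high in Ngp and Camp. Without thinning it was detected in 21.0% of DCA and 29.1% of Control members, and since its CPM also lay lower in DCA, no order is read from the thinned shares. Thinning left out 15 DCA and 20 Control members with fewer UMIs. At the same depth the median member had 2563 genes detected in DCA and 2597 in Control. The remaining cells low in Ngp and Camp exclude the members and the cells gated by Vcan and Mpeg1 or by Lpl, F7 and Fn1. After thinning, Fabp5 was found in 72.8% of them in DCA and 73.5% in Control, against 89.9% and 93.4% of members. Kit was found in 34.4% and 25.3% of them, against 35.8% and 30.0% of members. Cd34 was found in 2.13% and 2.89% of them. Ly6a was found in 2.51% and 4.29% of them, against 21.1% and 31.7% of members. For Mcpt8 the gap was smaller, with 41.6% and 35.0% of them against 59.6% and 56.4% of members.

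Markers of lymphoid, stromal and macrophage cells were scarce. Among lymphoid markers 7 of 12 were at 0, and the list summed to 22.7 CPM in DCA and 19.5 CPM in Control members. Among stromal feeder markers 7 of 10 were at 0, with a sum of 2.44 CPM in DCA and 1.97 CPM in Control, and among macrophage markers 5 of 10 were at 0, with sums of 26.0 and 28.6 CPM. Megakaryocyte and erythroid markers had 8 of 14 at 0 and summed to 68.2 CPM in DCA and 60.0 CPM in Control. Dendritic cell markers summed to 150 CPM in DCA and 187 CPM in Control. Mature neutrophil markers, among them the abundant S100a8 and S100a9, summed to 12762 CPM in DCA and 12519 CPM in Control members.

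Members made up a smaller share of the DCA library. They were 124 of 8321 kept cells with DCA, or 1.49% (interval 1.24 to 1.77%), and 247 of 9063 kept cells in Control, or 2.73% (2.40 to 3.08%). The ratio of the shares was 0.547 (0.437 to 0.681). With 1 library a group the spread between cultures is unknown, so this ratio compares 2 libraries. Just inside the threshold, with exactly 3 UMIs, lay 28 DCA and 19 Control members. Just outside it, with exactly 2 UMIs and every other limit met, lay 18 DCA and 21 Control cells.

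The rule counts UMIs, and DCA cells were shallower, with a median of 14829 UMIs per kept cell against 19168 in Control. The ratio was therefore also taken within depth. It was 0.653 (0.311 to 1.34) below 10000 UMIs, 0.919 (0.474 to 1.82) from 10000 to 15000, 0.759 (0.472 to 1.22) from 15000 to 20000, 0.612 (0.391 to 0.938) from 20000 to 30000 and 0.594 (0.332 to 1.00) above. It lay below 1 in each bin, and the interval left out 1 from 20000 to 30000 UMIs alone. With every cell thinned to 10000 UMIs, 85 of 6098 DCA cells (1.39%) and 171 of 7128 Control cells (2.40%) were members, a ratio of 0.581 (0.443 to 0.758). With a minimum of 5 UMIs in place of 3 the ratio was 0.394 (0.297 to 0.517).

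**Figure D2:**
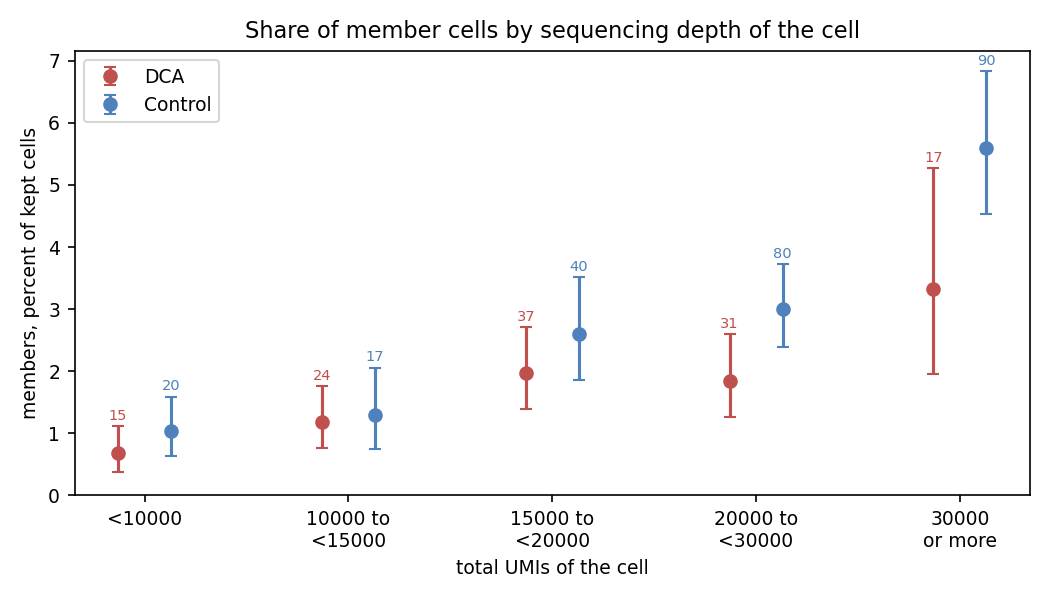
Members as a percent of kept cells (y axis) in 5 bins of the cell's total UMIs (x axis), for DCA (red, left) and Control (blue, right); points are shares, bars exact 95% binomial intervals and numbers the members. In the deepest bin 17 DCA members made up 3.33% and 90 Control members 5.60% of cells, and in all 5 bins the DCA share lay lower, with overlapping intervals.

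Each of the 3 leading groups took a smaller share of kept cells in DCA. Ccr2-led members were 0.577% of DCA and 1.16% of Control kept cells, a ratio of 0.498 (0.346 to 0.707). Hpgd-led members were 0.505% and 0.828%, a ratio of 0.610 (0.408 to 0.902). Ms4a6c-led members were 0.312% and 0.563%, a ratio of 0.555 (0.332 to 0.907). Whether these ratios differ from each other was not tested, and their intervals overlap. Without clusters 4 and 5, a split added after seeing the data, 89 DCA and 170 Control members remained and the ratio was 0.570 (0.436 to 0.741).

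The share was also taken with a gate that used none of the 3 genes. It asked for at least 3 UMIs of Cd34, Ly6a, Flt3 and Sox4 together, genes chosen after their values were seen. The minimum relative to a cell's total UMIs and the limit on Ngp and Camp were those of the rule. No limit was set on Vcan and Mpeg1, so cells with RNA of these genes could pass. With this gate 117 DCA cells (1.41%) and 217 Control cells (2.39%) passed, a ratio of 0.587 (0.465 to 0.739). Of these cells 131 were also members. This gate counts UMIs too. With every cell thinned to 10000 UMIs, 51 DCA and 94 Control cells passed it, a ratio of 0.634 (0.442 to 0.901). A second gate, with Fabp4 and Adgrg1 in place of Ly6a and Flt3, gave 0.626 (0.479 to 0.814). After thinning it gave 0.651 (0.440 to 0.953). The neighbouring cells with Vcan and Mpeg1 took the other direction, with 290 cells or 3.49% (3.10 to 3.90%) in DCA and 221 cells or 2.44% (2.13 to 2.78%) in Control. For the rule of the 3 genes with no limit on Vcan and Mpeg1, the ratio was 0.621 (0.519 to 0.741). This setting joins those neighbouring cells that meet the rest of the rule to the members.

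Over all kept cells the RNA of the 3 genes was lower with DCA. Ccr2 stood at 5.21 CPM in DCA and 9.29 CPM in Control, Hpgd at 6.94 and 12.4 CPM, and Ms4a6c at 6.45 and 10.6 CPM. Members held 58.3% of all Hpgd UMIs in DCA and 62.9% in Control, 39.0% and 52.8% of Ccr2 UMIs, and 19.9% and 32.3% of Ms4a6c UMIs. These levels and the share of members rest on the same UMIs and are not independent of each other.

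Within members, levels of the marker genes differed less between the libraries. Hpgd stood at 215 CPM in DCA and 216 CPM in Control members, a log2 ratio of -0.01 (-0.15 to 0.14). Its ratio was 0.03 (-0.17 to 0.22) in cluster 2, where its level was highest, -0.18 (-0.49 to 0.13) in cluster 1, -1.34 (-2.35 to -0.45) in cluster 3 and -0.97 (-1.38 to -0.57) in cluster 5. Ccr2 stood at 108 and 135 CPM (log2 ratio -0.33), Ms4a6c at 68.2 and 94.9 CPM (-0.48), and none of the 3 passed the 1.5-fold ratio used as a call. Because the rule set a minimum for their sum, their level within members is bounded from below in both libraries. The markers outside the rule also stayed within 1.5-fold: Fabp5 was at 582 CPM in DCA and 637 CPM in Control (-0.13), Spp1 at 125 and 181 CPM (-0.54), and Ly6a at 51.6 and 70.0 CPM (-0.44). In single cells, Hpgd reached 13.8 UMIs per 10000 in the highest DCA member and 29.8 in the highest Control member, with a median of 0 in both.

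Across genes, 173 of 4821 tested in members were higher with DCA past 1.5-fold (3.59%) and 170 were lower (3.53%), or 7.11% in either direction. A gene counts as tested when it reached 20 CPM and 50 UMIs in the library where it was higher; the fold stands in for a test, and there is no p-value. In the other kept cells 47 of 4661 genes were higher (1.01%) and 87 were lower (1.87%), or 2.87% in either direction; sums over fewer cells scatter more, so these shares are not on the same footing. With TMM scaling, which shifts every log2 ratio by -0.04, the split in members was 123 higher and 199 lower, and 126 and 196 with median-of-ratios size factors. The median log2 ratio over all genes tested was -0.004 and the central 95% ran from -0.66 to 0.62. The ratio also moved weakly with transcript length, with a Spearman rho of 0.11 over 4796 genes, which are not independent: of 4 equal groups by length, the shortest had 47 genes higher and 57 lower, and the longest 47 higher and 18 lower.

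Klf10 had the highest ratio. Klf10 encodes a Krüppel-like repressor that TGF-beta induces. It stood at 65.8 CPM in DCA members (162 UMIs) and 24.3 CPM in Control members (161 UMIs), a log2 ratio of 1.43 (1.11 to 1.76). UMIs were found in 56.5% of DCA and 42.1% of Control members, and at the thinned depth in 37.6% and 19.8%. It was higher with DCA in each of the 5 clusters, by log2 ratios of 0.79 to 2.25 over sums of few cells. In the other kept cells its log2 ratio was 0.90.

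Of the other genes with the 10 highest ratios, Tnfaip2, a gene induced by tumour necrosis factor, stood at 135 CPM in DCA and 61.5 CPM in Control members (log2 ratio 1.14; 0.92 to 1.35), and it was higher in each cluster. Gpr141, a G-protein-coupled receptor, stood at 81.6 and 37.2 CPM (1.13) and Gpr160, another, at 27.2 and 12.5 CPM (1.12). Gng11, a G-protein gamma subunit, stood at 23.6 and 9.98 CPM (1.24), while its ratio in the other kept cells was 0.00. Saa3, an acute-phase serum amyloid, was at 26.0 and 11.2 CPM (1.22), Ano10, an anoctamin, at 20.7 and 9.52 CPM (1.12) and the unnamed transcript 2900093K20Rik at 28.0 and 11.6 CPM (1.27). Hist2h2aa1, a replication-dependent histone, was at 58.9 and 27.2 CPM (1.11). Mmp8, the neutrophil collagenase, was at 96.2 and 43.8 CPM (1.13), but its log2 ratio was 0.07 without clusters 4 and 5. Histone genes are near-identical copies whose reads can be split among them, which was not checked.

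Among the 10 lowest ratios were genes carried by few cells and genes found in many. Prg2, the eosinophil major basic protein, had 1 UMI in DCA and 533 UMIs in Control members, a log2 ratio of -7.63 (-12.94 to -5.15), but 392 of the 533 came from 1 cell. Eosinophil markers as a list summed to 11.0 CPM in DCA and 98.0 CPM in Control members. That sum includes Prg2, the only 1 of the 8 listed genes that was tested, and so the UMIs of that cell. Stfa3 and Stfa2, stefin A inhibitors of cysteine proteases, had 5 and 12 UMIs in DCA and 145 and 218 in Control members (-3.43 and -2.76), and led cluster 5. The stefin A genes are near-identical copies, so their separate counts are uncertain. Without clusters 4 and 5 the log2 ratio of Stfa2 was -0.27.

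Ccl3, an inflammatory chemokine, stood at 58.1 CPM in DCA and 166 CPM in Control members, a log2 ratio of -1.51 (-1.77 to -1.26). Its UMIs were found in 29.8% of DCA and 43.3% of Control members. Much of it lay in cluster 4, at 430 CPM in its DCA and 964 CPM in its Control cells, and without clusters 4 and 5 the log2 ratio was -1.11. The remaining genes of the 10 lowest were spread over many cells. Smim26, a small mitochondrial protein, had 18.3 and 49.3 CPM (-1.43) and was found in 29.8% of DCA and 66.0% of Control members. Mrps28, of the mitochondrial ribosome, had 24.4 and 65.5 CPM (-1.43), Washc3, of the WASH complex on endosomes, 13.4 and 37.0 CPM (-1.47), and Med31, of Mediator, 9.34 and 23.4 CPM (-1.33). Hist1h2af had 16.2 and 40.8 CPM (-1.33), and the ribosomal protein pseudogene Rpl9-ps6, whose reads can be shared with its parent gene, 8.12 and 24.2 CPM (-1.57). In the other kept cells these 6 genes had ratios of -1.20 to -1.72.

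**Figure D3:**
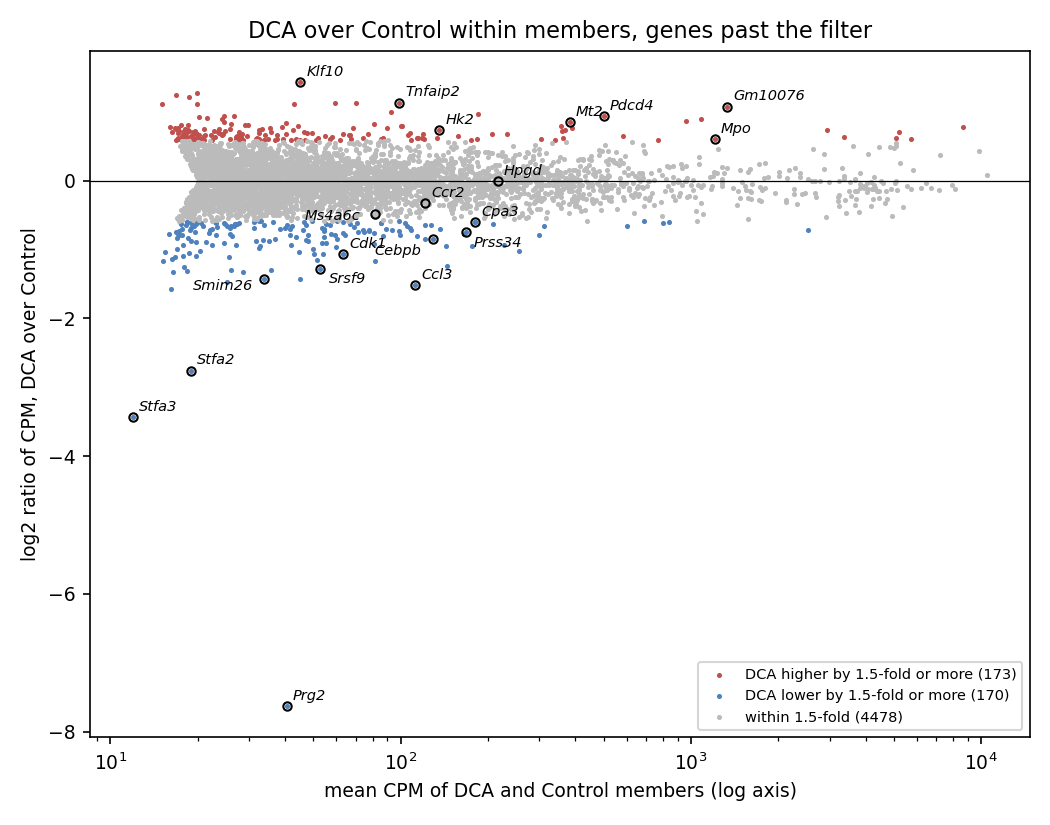
Log2 ratio of CPM within members, DCA over Control (y axis), against the mean CPM of both libraries (x axis, log scale) for the 4821 genes tested; red points are higher and blue points lower with DCA past 1.5-fold, and 20 genes are named. Klf10 lies highest at 1.43, Hpgd lies at -0.01, and Prg2, Stfa3 and Stfa2 lie below the other points.

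The lists of genes were read by their counts and medians, against a median of -0.004 over all genes tested. Glycolysis and hypoxia genes had a median log2 ratio of 0.24, with 3 of 19 tested past 1.5-fold, all 3 higher, and 16 of 19 above 0. Hk2, the hexokinase that hypoxia induces, stood at 170 CPM in DCA and 102 CPM in Control members (0.73). It was higher in each of the 5 clusters, by 0.41 to 0.99, and its ratio was 0.53 after thinning. Bnip3, a mitophagy receptor, stood at 90.2 and 58.4 CPM (0.63, and 0.30 without clusters 4 and 5). Vegfa, the endothelial growth factor, stood at 24.8 and 15.6 CPM (0.67, and 0.45 with a minimum of 5 UMIs in the rule). Eno1, an enolase, stood at 596 and 415 CPM (0.52), and Gapdh at 2980 and 3019 CPM (-0.02). The median of the same list in the other kept cells was 0.25.

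Prostaglandin and leukotriene genes, the pathway of Hpgd, had a median of 0.02, with 1 of 7 tested past 1.5-fold and 24 genes listed. This was Ptges2, a prostaglandin E synthase, at 21.1 CPM in DCA and 14.1 CPM in Control members (0.59, and 0.55 with TMM scaling). Ptges3, another synthase and co-chaperone, stood at 378 and 373 CPM, and Alox5ap, which presents arachidonate to 5-lipoxygenase, at 303 and 359 CPM (-0.24). Ptgs2 (COX-2) was too low to be tested, at 6.50 CPM in DCA and 9.98 CPM in Control members. Hpgd itself had a log2 ratio of -0.01 in members and -0.70 in the other kept cells, and the rule, which uses Hpgd UMIs to set the members apart, shapes both values.

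Itga4, the alpha 4 integrin, stood at 68.6 CPM in DCA and 55.9 CPM in Control members (0.30), within 1.5-fold. Among CC chemokines, 2 of 4 tested were lower, Ccl3 and Ccl4. Ccl4, a close relative of Ccl3, stood at 43.4 CPM in DCA and 75.0 CPM in Control members (-0.79, and -0.32 as a mean over cells). Ccl2, the main ligand of CCR2, had 0 UMIs in DCA members, which allows up to 1.22 CPM (3 counts of the total), and 12 UMIs or 1.81 CPM in Control members. Of the Ms4a family 2 of 12 were tested, and Ms4a3, a gene of granulocyte-monocyte progenitors, stood at 1351 CPM in DCA and 1600 CPM in Control (-0.24).

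Stem and early progenitor markers had a median of -0.43, with 3 of 10 tested lower past 1.5-fold and none higher. Gata2, a factor of stem and mast cells, stood at 16.2 CPM in DCA and 27.5 CPM in Control members (-0.76), Lmo2, its partner in the blood-forming complex, at 39.4 and 59.3 CPM (-0.59, and -0.21 after thinning), and Cd48, a SLAM family antigen, at 10.6 and 22.8 CPM (-1.11). Cd34 stood at 25.6 and 36.3 CPM (-0.50), within 1.5-fold. Kit ran the other way, at 55.6 CPM in DCA and 41.0 CPM in Control members (0.44). Without cluster 4 the median of the list was -0.21. Myeloid transcription factors had a median of -0.21 with 2 of 16 tested lower, Gata2 and Cebpb. Most Gata2 UMIs lay in cluster 4, with 39 in DCA and 157 in Control cells, where its log2 ratio was 0.05 (-0.49 to 0.57). Cluster 4 made up 14.5% of DCA and 21.1% of Control members.

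Cebpb, the C/EBP factor of emergency granulopoiesis whose promoter is shown above, stood at 92.6 CPM in DCA and 166 CPM in Control members, a log2 ratio of -0.84 (-1.05 to -0.63). It was lower in each of the 5 clusters, with log2 ratios of -0.60 to -2.37, and in each leading group. In single cells its median was 0.77 UMIs per 10000 in DCA members and 1.30 in Control members. Its log2 ratio in the other kept cells was -0.93. Cebpb and Camp, a gene of the rule, were the 2 of 4 tested genes lower in a list of vitamin D receptor targets. The list's median was -0.69. Whether each listed gene is a target of the receptor in these mouse cells was not tested. The series title names that receptor.

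Basophil and mast cell markers had a median of -0.69, with 4 of 5 tested lower past 1.5-fold, among them Gata2, which the stem cell list also holds. Prss34 stood at 125 CPM in DCA and 210 CPM in Control members (-0.75), Cpa3 at 144 and 218 CPM (-0.60) and Hdc, the histidine decarboxylase that makes histamine, at 41.0 and 66.2 CPM (-0.69, and -0.54 after thinning). Mcpt8 stood at 615 and 564 CPM (0.13). Inside cluster 4, with 18 DCA and 52 Control cells, it was higher with DCA, at 5588 and 2865 CPM (0.96; 0.86 to 1.06). Its ratio was -0.02 in cluster 1, -1.49 in cluster 3 and -2.11 in cluster 5. Most UMIs of Prss34 and Cpa3 lay in cluster 4, the smaller share of which in DCA members is given above, and inside it their ratios were 0.03 and 0.10. Cluster 5 held 0 DCA and 138 Control UMIs of Prss34 and 0 DCA and 69 Control UMIs of Cpa3, each found in 4.76% of its cells. In clusters 1 to 3, Prss34 had 2 DCA and 0 Control UMIs and Cpa3 had 5 DCA and 11 Control UMIs, too few to give a direction. Summed over the 9 markers the level was 960 CPM in DCA and 1117 CPM in Control members.

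Granulocyte-monocyte progenitor markers had a median of -0.07, with 1 of 12 tested past 1.5-fold. This was Mpo, at 1456 CPM in DCA and 957 CPM in Control members (0.61), higher in each of the 5 clusters by 0.33 to 1.66, while its ratio in the other kept cells was 0.17. The Mpo ratio lay under the fold with TMM scaling, at 0.57, and after thinning, at 0.52. Elane stood at 1957 and 1630 CPM (0.26), Prtn3 at 3867 and 4085 CPM (-0.08) and Ctsg, cathepsin G, at 2869 and 3965 CPM (-0.47). Growth factor receptors had 0 of 4 tested past 1.5-fold and a median of 0.24.

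S phase genes had a median of -0.14 with 2 of 17 tested lower, and G2 and M phase genes a median of -0.09 with 1 of 18 lower. Pcna, the sliding clamp of DNA polymerase, stood at 82.8 CPM in DCA and 144 CPM in Control members (-0.80), Tipin, of the replication fork, at 72.7 and 126 CPM (-0.79, and -0.57 after thinning) and Cdk1, the mitotic kinase, at 41.0 and 85.7 CPM (-1.06). Mki67, a marker of cycling cells, ran the other way at 189 and 156 CPM (0.28). Histone genes had 4 of 12 tested higher, among them Hist2h2aa1, given above, and Hist1h2ap, at 1411 CPM in DCA and 757 CPM in Control members (0.90). Ribosomal protein genes lay below 0 in 19 of 20 cases with a median of -0.15 and none past 1.5-fold.

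**Figure D4:**
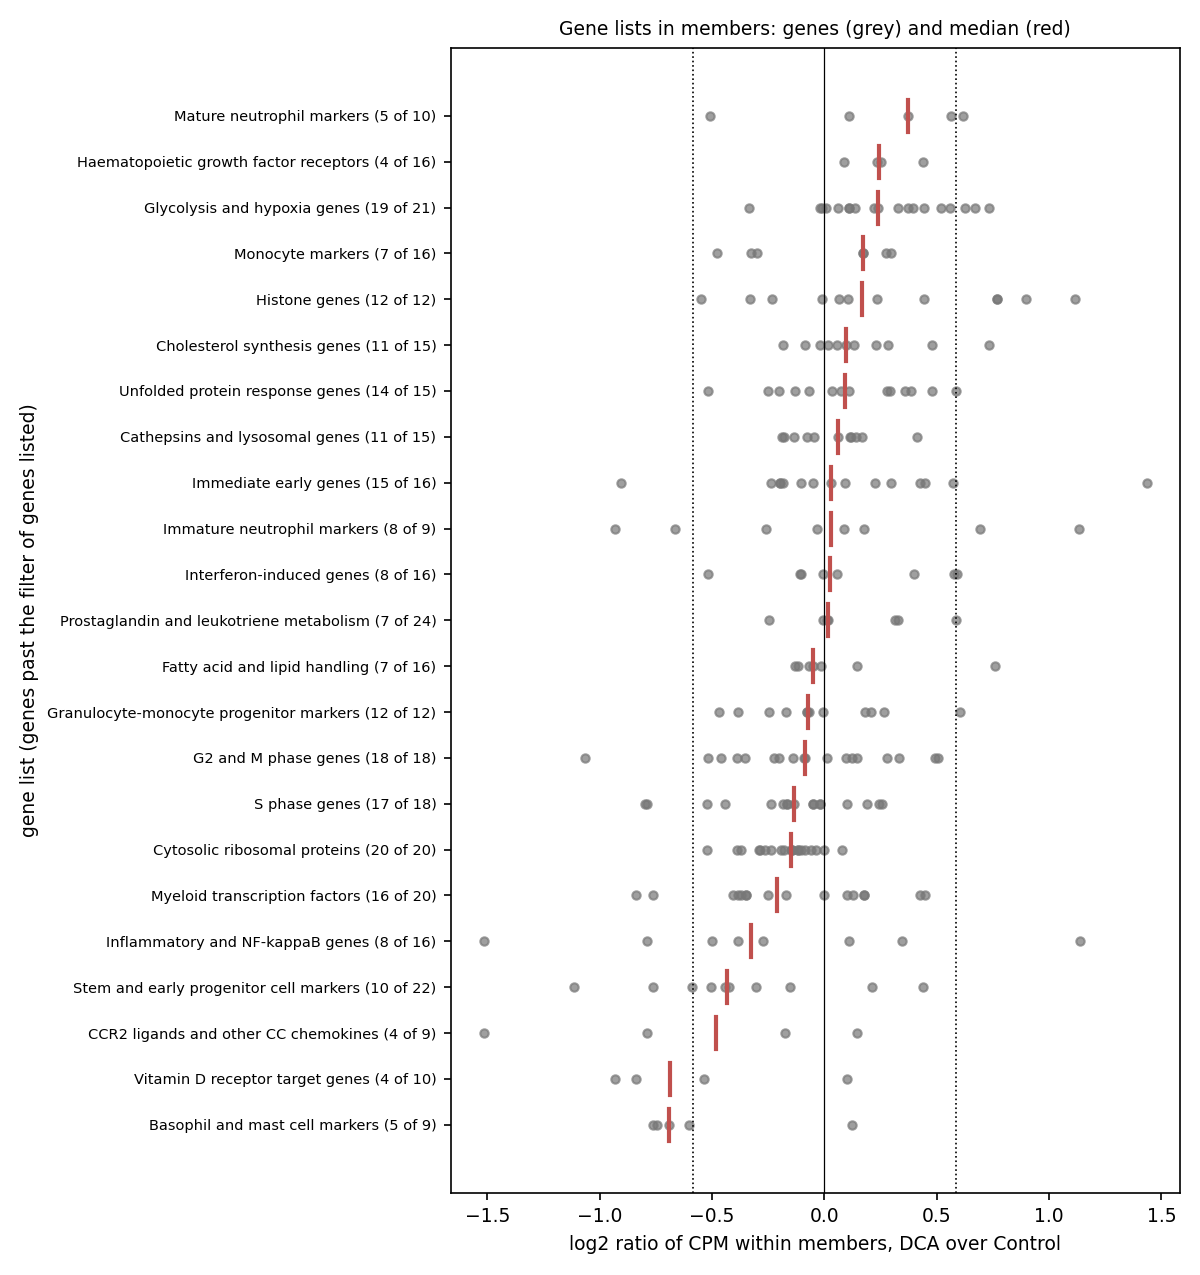
Log2 ratio of CPM within members, DCA over Control (x axis), for each tested gene (grey points) of the lists described that have at least 4 genes tested (y axis, with the number tested of the number listed); red bars are list medians and dotted lines mark 1.5-fold. Basophil and mast cell markers have the lowest median at -0.69, stem and early progenitor markers lie at -0.43 and glycolysis and hypoxia genes at 0.24.

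Some ratios within members differed in size from those in the other kept cells of the same libraries, although no test of that difference was possible. Gng11, Gpr160 and Mpo stood at 1.24, 1.12 and 0.61 in members and at 0.00, 0.14 and 0.17 in the other cells. Gm10076, a predicted gene, had a ratio of 1.07 in members and 1.06 in the other cells. Cebpb had -0.84 and -0.93, and Hk2 0.73 and 0.78. Pdcd4, a translation inhibitor, stood at 658 CPM in DCA and 342 CPM in Control members (0.94), against a ratio of 0.66 in the other cells, and Mt2, a metallothionein, at 492 and 273 CPM (0.85), against 0.66. Gm10076, Pdcd4 and Mt2 were named after their values were seen.

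**Figure D5:**
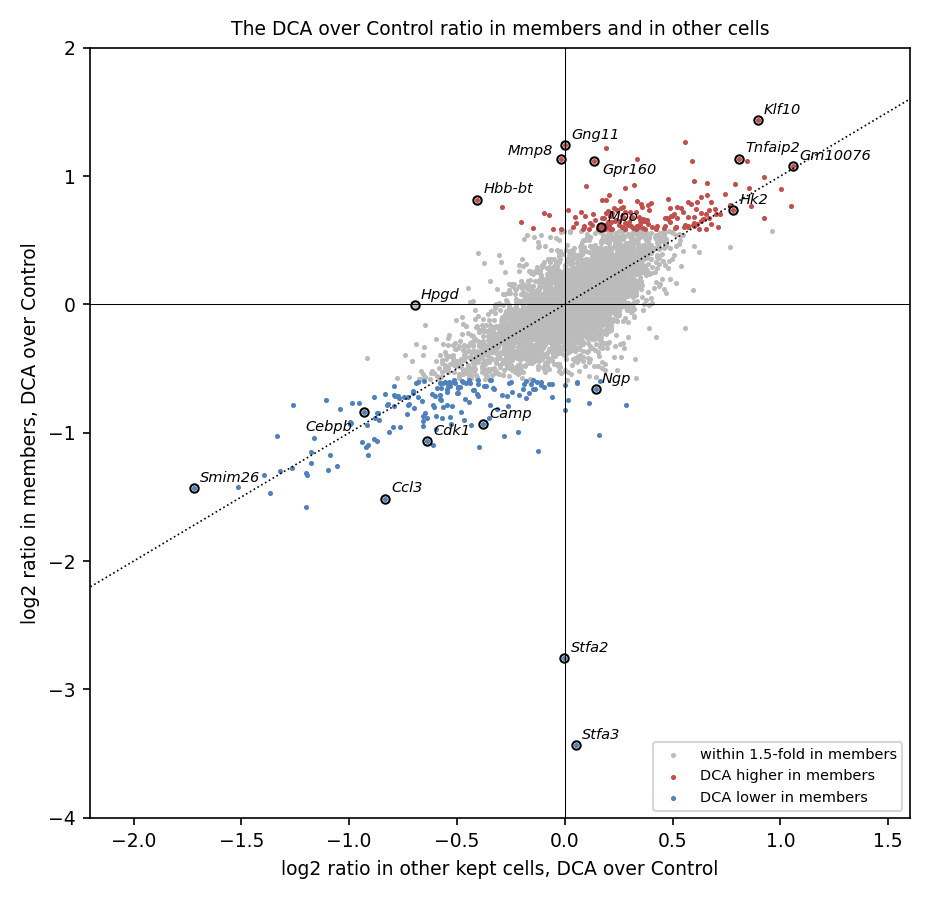
Log2 ratio, DCA over Control, of each tested gene in members (y axis) against the same in the other kept cells (x axis), with red and blue points past 1.5-fold in members and the dotted line marking equal ratios. Hk2, Gm10076 and Cebpb lie near the line, Gng11, Gpr160 and Mmp8 lie near 0 on the x axis alone, and Prg2, at -7.63 in members, lies off the axis.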

How the data were processed

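Single-cell RNA of sorted mouse marrow cells was captured with 10x 3′ v3.1 reagents and processed with Cell Ranger 6.0, per the submitters' processing notes. The sources used here do not give the genome build. The authors deposited 1 table of raw UMI counts of 32285 genes, whose column names carry only DCA or Control, so each group is 1 library and the edgeR test planned per sample was not run. The kept cells held 130921256 UMIs in DCA and 182728198 in Control, and members 2462357 and 6614970. Counts were summed over members of each library and divided by the total (CPM). Log2 ratios are of DCA over Control, with exact binomial intervals, and cover counting error only. A gene was tested when it reached 20 CPM and 50 UMIs in the library with more of it, and called past 1.5-fold.

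Members and gene lists were chosen with earlier results of these data known. Named genes are the 3 genes of the rule with 3 further markers, the 15 leading genes over the other cells, the 10 highest and 10 lowest ratios, and in each list the 4 most abundant genes and those past 1.5-fold; other genes named were chosen after their values were seen, and 1 gene is not reported here. Members were clustered with Leiden (leidenalg 0.10.2; 1000 variable genes, 15 components, 15 neighbours, resolution 0.6). Scrublet, run in scanpy 1.11.5, marked 0.048% of DCA and 0.044% of Control cells at its own threshold and so did not work as a caller; the 6% of cells with the highest scores were removed in an alternative. Other alternatives were TMM (edgeR 4.0.16) and median-of-ratios scaling, no filter, means over cells, thinning to 10000 UMIs, other limits in the rule, and removal of clusters or single cells. The ratio step was tested on simulated data.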

Additional observations from a re-analysis of the deposited data

Results flagged for a closer look

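Of the 173 genes higher and 170 lower in members, 9 and 11 had the opposite sign in the other kept cells of the same libraries. In the same direction, 42 and 77 passed 1.5-fold there too. The Pearson correlation of the 2 sets of log2 ratios was 0.71 over the genes tested. Given here are 3 genes of opposite sign, and the difference was not tested. Hbb-bt, an adult beta globin gene, had a log2 ratio of DCA over Control of 0.82 in members and -0.41 in the other cells, with UMIs in 8.87% of DCA and 12.1% of Control members. Stfa3, a stefin A gene, had -3.43 in members and 0.05 in the other cells, and 50 of its 145 Control UMIs came from 1 cell. Ngp, a secondary granule gene, had -0.66 in members and 0.14 in the other cells; the rule set a limit on it, so its level in members is not independent of how they were chosen.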

How the results depend on the processing

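No paired analysis was possible because the cell names carry no sample letter, and for the same reason no replicate could be left out. The share ratio was 0.543 to 0.621 under the other limits, thinning and removals tried, and 0.394 with a minimum of 5 UMIs. Without a filter 1393 genes were higher and 1241 lower, since genes with a few UMIs then pass, and no ratio was taken where both libraries had at most 3 UMIs. Of the 173 genes higher and 170 lower, 123 and 170 were also called with TMM factors, 51 and 95 after thinning to 10000 UMIs, 91 and 136 without clusters 4 and 5, and 123 and 170 without the cell with most UMIs of the gene; the last 2 settings were added after seeing the data. Over these 173 and 170 genes, the sign turned in 9 and 4 after thinning and in 3 and 2 without clusters 4 and 5. It turned in 1 and 0 as a mean over cells, and in 1 and 0 without the highest Scrublet scores. Among the named genes, the sign turned for Apoe after thinning (-0.29). For Ltf it turned after thinning (-0.75), without the highest Scrublet scores (-1.01) and without clusters 4 and 5 (-0.42). Without those clusters it also turned for Cpa3 (0.25, from 5 DCA and 11 Control UMIs) and Il1r2 (-0.065). Prss34 could not be given a ratio there, with 2 DCA and 0 Control UMIs. The cause was not tested. Depth limits low genes: a gene at the 20 CPM minimum rests on about 50 UMIs in DCA members, and cells of 1 library are not replicates.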

Other observations

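Further gene lists were measured in members. Over all genes tested there, 3.59% were higher and 3.53% lower past 1.5-fold, or 7.11% in either direction. Unfolded protein response genes had a median log2 ratio of DCA over Control of 0.09, with 1 of 14 tested higher, Ddit3 (CHOP), at 32.5 CPM in DCA and 21.6 CPM in Control (0.59, and 0.55 with TMM scaling). Cholesterol synthesis genes had a median of 0.10, with 1 of 11 tested higher, Sc5d, a sterol desaturase, at 23.1 CPM in DCA and 13.9 CPM in Control. Interferon-induced genes had a median of 0.03, with 1 of 8 tested higher, Slfn2, a schlafen gene, at 130 CPM in DCA and 86.5 CPM in Control (0.59, and 0.55 with TMM scaling). Lysosomal genes had a median of 0.06 with 0 of 11 tested past 1.5-fold, and monocyte markers 0.17 with 0 of 7.

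Immediate early genes had a median of 0.03 over 15 tested, with Klf10 higher and Zfp36, which destabilises cytokine mRNA, lower at 37.4 CPM in DCA and 69.8 CPM in Control. Inflammatory and NF-kappaB genes had a median of -0.33 over 8 tested, with Tnfaip2 higher and Ccl3 and Ccl4 lower. Lipid genes had a median of -0.05 over 7 tested, with Apoe (apolipoprotein E) at 21.5 CPM in DCA and 12.7 CPM in Control (0.76, and -0.29 after thinning). Mature neutrophil markers had a median of 0.37 over 5 tested and immature neutrophil markers 0.03 over 8, where Ltf (lactoferrin; 0.69, and -0.42 without clusters 4 and 5) and Mmp8 were higher and Ngp and Camp, both limited by the rule, were lower.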
